A study of Mus musculus with 24 samples.

Results

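Cytosolic ribosomal protein genes were examined in mouse CD8+ T cells cultured with dexamethasone (Dex, a synthetic glucocorticoid), the cytokine IL27, or both. Members were the genes whose symbols begin with Rpl or Rps and a digit, plus Rplp0, Rplp1, Rplp2 and Rpsa. The Rps6k kinases and symbols that contain -ps were dropped, and a mean of at least 1 FPKM over the 24 libraries was required. FPKM is a read level scaled to transcript length and to sequencing depth. The rule kept 83 of 23366 genes, 49 of the large subunit and 34 of the small subunit by symbol. Nearest to the FPKM minimum were Rps4y2 at a mean of 2.59, which was kept, and Rpl39l at 0.57, which was not. Rpl3l at 0.028 and Rpl10l at 0.014 were also left out. Fau, which encodes a ribosomal protein fused to a ubiquitin-like sequence, is outside the rule, and Rps19bp1, which encodes a protein that binds Rps19 and is not itself part of the ribosome, is inside it.

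The 24 libraries form 8 groups of 3, all of C57BL/6 origin. Wild type (WT) cells were Nr3c1fl/fl without E8i-Cre, and cKO cells were E8i-Cre+ Nr3c1fl/fl. Both therefore carried the floxed allele of Nr3c1, the glucocorticoid receptor gene, and E8i drives Cre in the CD8 lineage. Sorted naive cells received antibodies against CD3 and against CD28, each at 1 µg/ml. Day 3 groups were WT and cKO cells after 3 days of stimulation without Dex (Ctrl) or with 10 nM Dex. Day 9 groups were wild type cells stimulated for 3 days, rested for 3 days in IL2 at 5 ng/ml and stimulated again for 3 days, with no addition (Ctrl), with 10 nM Dex, with 25 ng/ml IL27, or with Dex and IL27 together. The labels do not say whether the libraries of a group came from separate mice or cultures, so the p-values measure the spread between these libraries, which may be technical. Each library came from 1000 sorted cells, and fewer cells of a type and less RNA per cell cannot be told apart in such bulk samples.

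The libraries held from 14221900 to 19018400 estimated counts. Nr3c1 lay between 2.37 and 3.39 FPKM in the WT libraries of day 3 and between 0.85 and 1.31 FPKM in the cKO libraries, so all 6 cKO libraries lay below all 6 WT libraries. CD8 T cell markers summed to between 1807 and 2399 CPM (counts scaled to library depth) in every group. The 4 markers of CD4 T cells and the 5 of B cells summed to at most 22.2 and 21.1 CPM, and Pax5 was at 0 in all libraries. The 3 genes listed as NK cell markers (Ncr1, Klrb1c and Eomes) went from between 7.89 and 11.8 CPM in day 9 Ctrl libraries to at most 2.29 with Dex or IL27. At day 3 they summed to between 10.6 and 13.5 CPM in WT Ctrl and between 2.31 and 3.74 in WT Dex. In cKO they summed to between 13.3 and 16.8 CPM in Ctrl and between 10.8 and 14.2 with Dex. The 6 measured myeloid and dendritic markers went from between 1.68 and 1.96 in day 9 Ctrl to between 8.54 and 11.7 with Dex and IL27 together. Their part in the results below was not tested.

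Each cytosolic ribosome holds about equal numbers of these proteins, joined to ribosomal RNA as a small subunit that decodes the message and a large subunit that joins amino acids. Their mRNAs are among the most abundant of a growing cell. Many of them are TOP mRNAs, which begin with a C followed by a run of C and T and whose translation is controlled through mTORC1 and the RNA-binding protein Larp1. In T cells activation brings growth and ribosome production, and glucocorticoids act through Nr3c1 to dampen activation.

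Start sequences are shown for 4 members that were higher in the treated cells of day 9 (Rps27, Rps15a, Rpl22l1 and Rps6), for 3 that were lower (Rps27l, Rpl7l1 and Rps19bp1) and for Rpl36al, whose level did not pass the test. They were chosen after the values were seen. Each is the 15 bases before and 15 after a RefSeq start in GRCm38.p6, which is not the build of the expression tables, read 5′ to 3′ on the gene's strand, with the longest run of C and T in capitals.
Rps27, chr3:90213634-90213663, minus strand: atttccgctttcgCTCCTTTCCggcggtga
Rps15a, chr7:118116133-118116162, minus strand: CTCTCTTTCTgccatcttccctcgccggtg
Rpl22l1, chr3:28805493-28805522, plus strand: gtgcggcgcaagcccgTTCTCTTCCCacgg
Rps6, chr4:86857353-86857382, minus strand: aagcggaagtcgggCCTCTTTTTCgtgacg
Rps27l, chr9:66946071-66946100, plus strand: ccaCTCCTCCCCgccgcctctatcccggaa
Rpl7l1, chr17:46782642-46782671, minus strand: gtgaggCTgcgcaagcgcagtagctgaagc
Rps19bp1, chr15:80264292-80264321, minus strand: cagggcggaagtagCTCgccgcgtgtgggc
Rpl36al, chr12:69184053-69184082, minus strand: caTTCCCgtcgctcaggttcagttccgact

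Of the 83 members, 62 had a start in the RefSeq sequences. A run of at least 7 bases of C and T within these 30 bases was present for 33 of the 62 (53.2%) and for 21.3% of the 27025 genes listed there. Among members higher with Dex and IL27 together at day 9, 30 of 55 had such a run, against 2 of 4 that were lower and 1 of 3 that were not called. The run was therefore found on both sides, but on the lower side only in Rps27l and Rpl34. The 4 higher members shown above all held runs of 9 or 10 bases, so they do not represent the 55. Rpl37a, Rps2 and Rpl24, higher but not shown, had longest runs of 4, 6 and 2 bases. Rpl34, lower and not shown, had a run of 18 bases at 1 of its starts. Rps27l and Rps27 each held a run of 9 bases, and at another RefSeq start of Rps27l the longest run was 4. For Rpl34 the counting is uncertain, as given below. In the 300 bases around the start, the letters CCGGAAG, the core of sites for ETS factors, occurred on either strand for 25 of the 62 members (40.3%) and for 9.93% of all genes. The letters CACGTG, an E-box, occurred for 6 members (9.68%) and 8.09% of all genes, and TATAAA for 7 members (11.3%) and 15.7% of all genes. These are matches of letters in RefSeq sequence, with no measurement of binding.

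Ribosomal protein mRNA filled a large part of every library. Together the 83 genes took between 10.2% and 17.0% of the counts left after Rn45s, the ribosomal RNA precursor, was set aside, and between 20.8% and 32.3% of summed FPKM. Rpl41, Rps4x and Rplp0 had the highest levels, with means of 4636, 4246 and 3744 FPKM, and ranked 4, 5 and 6 among all genes. At the other end stood Rps4y2 at 2.59, Rps19bp1 at 36.6, Rpl7l1 at 52.9 and Rpl34 at 56.0 FPKM. Large-subunit genes held between 1.46 and 1.55 times the counts of small-subunit genes in every library.

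The share of counts without Rn45s separated the day 9 groups. In day 9 Ctrl libraries the members took 10.2%, 10.4% and 10.4%. With Dex they took 15.5%, 15.5% and 15.8%, with IL27 14.8%, 14.5% and 14.5%, and with both 16.1%, 17.0% and 15.7%. No treated library overlapped the Ctrl libraries, and those with Dex lay above those with IL27 alone. At day 3 the groups overlapped, with 13.0% to 13.5% in WT Ctrl, 13.4% to 14.1% in WT Dex, 13.3% to 14.6% in cKO Ctrl and 13.1% to 14.5% in cKO Dex.

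Mitochondrial ribosomal protein genes, a list of 76 genes whose products serve the separate ribosome of mitochondria, went the other way. Their share was 0.66% to 0.67% in day 9 Ctrl libraries, 0.48% to 0.50% with Dex, 0.48% to 0.53% with IL27 and 0.43% to 0.44% with both. Rn45s moved in the direction of the cytosolic genes, from between 8.95% and 9.25% of all counts in day 9 Ctrl to between 14.1% and 15.05% with Dex, between 13.8% and 14.5% with IL27 and between 15.8% and 16.4% with both. What Rn45s reads say of RNA capture in these libraries was not tested.

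**Figure D1:**
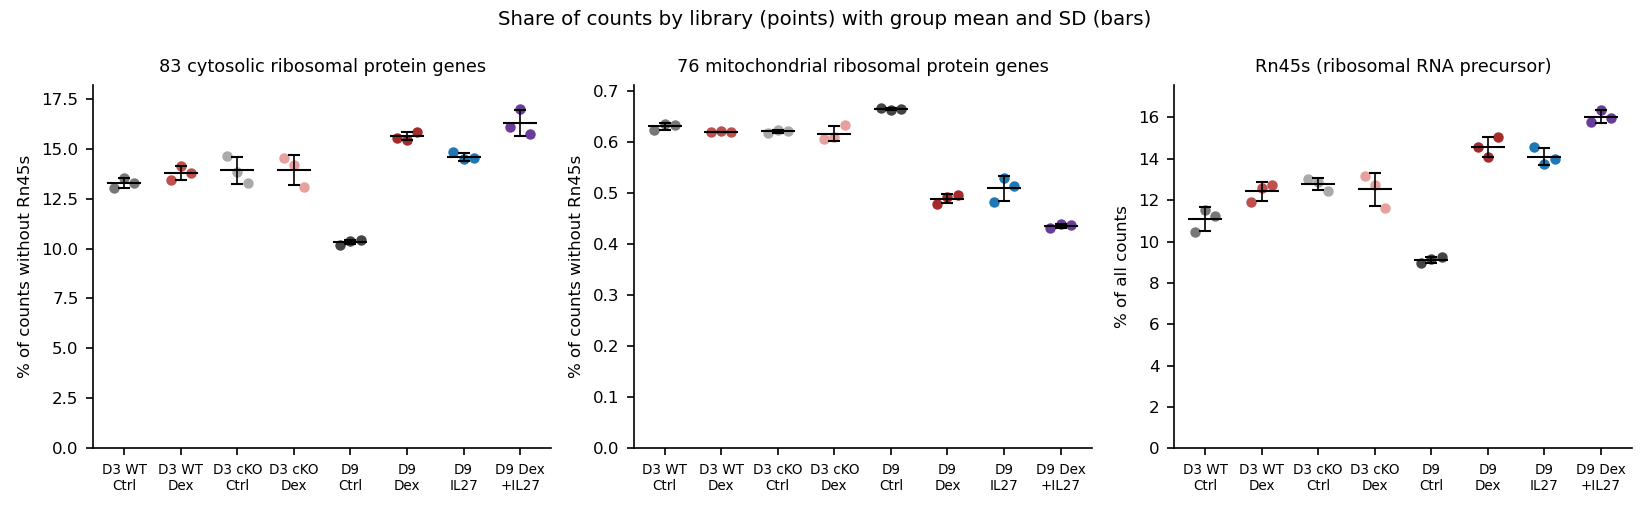
Share of counts (%, y axes from 0) held by the 83 cytosolic ribosomal protein genes, the 76 mitochondrial ribosomal protein genes and Rn45s in each library (points), by group, with the mean and SD of 3 libraries (bars). Day 9 Ctrl libraries lie between 10.2% and 10.4% in the left panel, below all 9 treated day 9 libraries.

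Day 9 Ctrl cells stood below the activated cells of day 3, and treated cells above them. Of the 83 members, 77 had a lower mean FPKM in day 9 Ctrl than in day 3 WT Ctrl, with a median ratio of 0.826, while 49.6% of the 10167 genes that reach a mean of 1 FPKM were lower. In day 9 Dex 72 members were above day 3 WT Ctrl (median ratio 1.18), as were 70 with IL27 (1.12) and 72 with both (1.23). Of the same 10167 genes, 46.5%, 45.6% and 46.7% were above in that order, with median ratios of 0.967, 0.959 and 0.961. The difference between days was not tested, because culture history and sample series run with it and cannot be told apart from it.

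**Figure D2:**
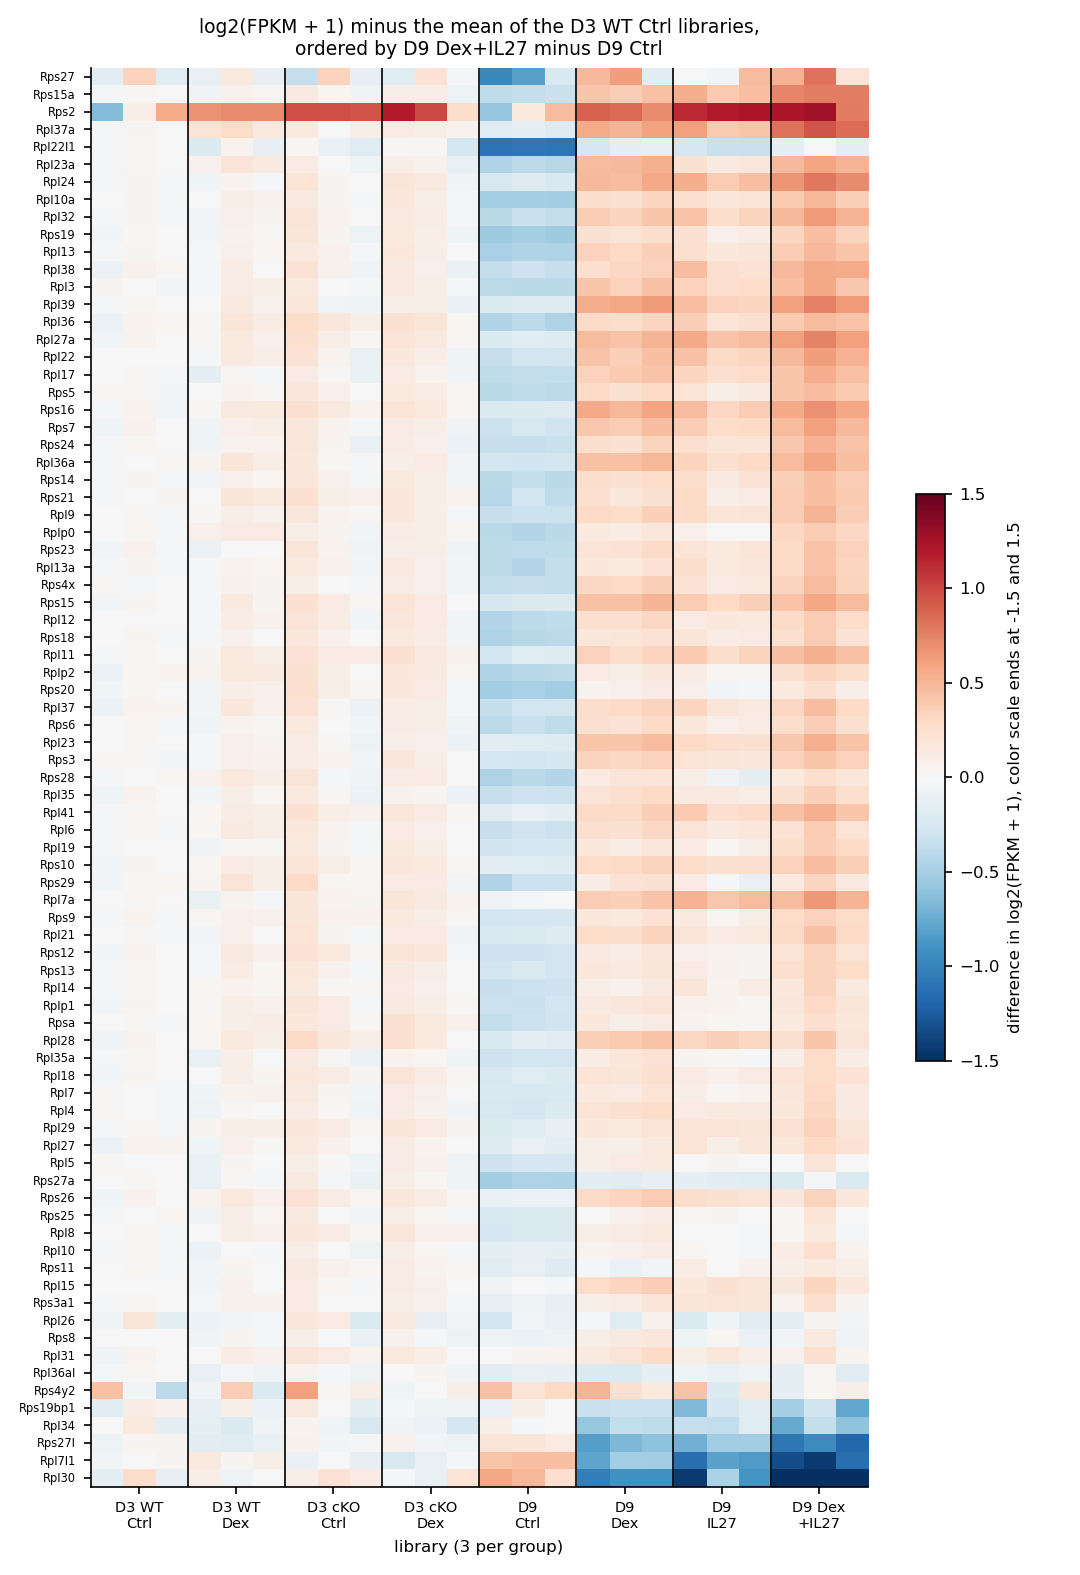
Levels of 81 of the 83 genes (rows) in the 24 libraries (columns, 3 per group) as log2(FPKM + 1) minus the mean of the day 3 WT Ctrl libraries, with rows ordered by the day 9 difference between Dex with IL27 and Ctrl. Most rows are blue in day 9 Ctrl and red in the treated day 9 groups, the lowest rows (Rps27l, Rpl7l1, Rpl30) show the opposite, and the row of Rps2 varies within groups.

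At day 3 few members passed the test with Dex in WT cells. Rpl37a, a large-subunit protein, was the single member that passed the test (edgeR quasi-likelihood test, Benjamini-Hochberg adjusted p under 0.05), against 9.43% of all 11967 genes tested. Its libraries had 718, 750 and 725 FPKM in Ctrl and 844, 883 and 807 FPKM with Dex, and it rose by 0.22 ± 0.05 on the log2 scale (log2 fold change ± SE, n = 3 per group here and below; adjusted p = 0.00768, edgeR). Without WT Dex replicate 2 no member passed, and without WT Ctrl replicate 3, 2 passed. Without the low-count filter 4 members passed, as did 4 with only the groups compared. The point value was positive for 69 of the 83 members. The median change over the 83 members was 0.05 and over all genes 0.01. In the same libraries Tsc22d3, a direct target of the receptor, rose by 1.73 ± 0.11.

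In cKO cells no member passed with Dex (background 0% of all genes), by edgeR, by DESeq2 or by limma on FPKM. In edgeR 0 members had an unadjusted p under 0.05, against 399 of the 11967 genes tested. Their changes ranged from -0.36 to 0.05 with a median of 0.00. The difference between the Dex changes of the 2 genotypes passed for 0 members by edgeR, DESeq2 and limma, against 2.95% of all genes in edgeR. For this difference 2 members had an unadjusted p under 0.05 in edgeR, against 1878 of the 11967 genes. For Rpl37a this difference was 0.22 ± 0.07 (adjusted p = 0.108, edgeR), so its change in WT was not shown to differ from that in cKO.

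Without Dex, cKO and WT cells differed in 1 member, against 2.36% of all genes. This was Rps2, a small-subunit protein, at 876, 1476 and 2025 FPKM in WT Ctrl and 2699, 2684 and 2661 FPKM in cKO Ctrl. It was higher in cKO by 0.89 ± 0.22 (adjusted p = 0.0415, edgeR), but the WT libraries themselves spanned more than a doubling, and the call was lost in DESeq2, in limma and when any of 5 of the 6 libraries was left out. The exception was WT Ctrl replicate 3. The point value was positive for 78 of the 83 members, with a median of 0.07 against 0.003 over all genes. In edgeR 19 members had an unadjusted p under 0.05, against 2049 of the 11967 genes tested. With Dex, cKO and WT also differed in 1 member, against 6.9% of all genes. Rpl7l1 had 68.5, 63.7 and 65.7 FPKM in WT and 52.1, 57.2 and 60.5 FPKM in cKO, a change of -0.23 ± 0.06 (adjusted p = 0.0318, edgeR). This call was lost without WT Dex replicate 1 or 3 or without cKO Dex replicate 4 or 5. Without cKO Dex replicate 6, 2 members passed. With Dex the point value was positive for 61 of the 83 members, with a median of 0.03.

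At day 9 nearly the whole set rose with Dex. Of 83 members 74 were higher, against 28.2% of all 12320 genes tested, and 4 (Rpl34, Rps27l, Rpl7l1 and Rpl30) were lower, against 27.4%. The median change was 0.58 for the members and 0.03 for all genes. By subunit, 44 of 49 large-subunit genes and 30 of 34 small-subunit genes were higher, with medians of 0.57 and 0.60. Among the 5 members not called were Rps19bp1, Rpl36al, Rps4y2 and Rpl26.

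IL27 alone gave 72 higher and 6 lower members, against 29.3% and 28.1% of all genes, with a median of 0.48. Dex and IL27 together gave 73 higher and 6 lower, against 34.3% and 32.6%, with a median of 0.67. The 3 comparisons share the same Ctrl libraries, so their counts are not independent of each other.

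**Figure D3:**
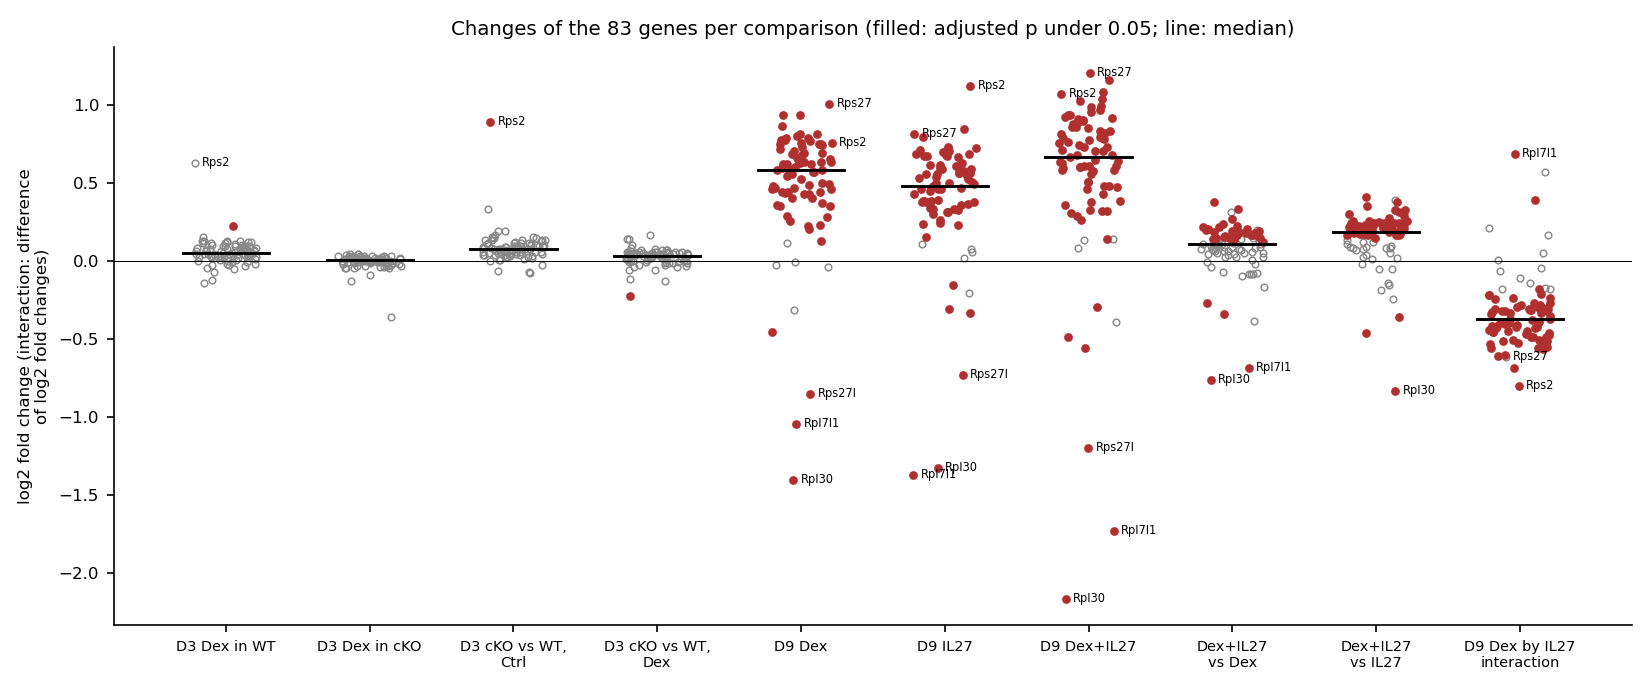
Log2 fold change of each of the 83 genes (points) in 10 comparisons, with filled points for an adjusted p under 0.05 and a line at the median. The interaction is the combined change minus the sum of the single changes. Day 3 medians lie near 0, the medians of the 3 treatments against Ctrl at day 9 are 0.58, 0.48 and 0.67, and Rpl30, Rpl7l1 and Rps27l stand apart below them.

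The proteins of the stalk, which recruits translation factors to the large subunit, rose together. Rplp0, which anchors the stalk, had 2738, 2658 and 2726 FPKM in Ctrl, 3997, 3891 and 4067 with Dex, 3815, 3633 and 3619 with IL27, and 4467, 4702 and 4488 with both. The 4 groups did not overlap. Its changes from Ctrl were 0.57 ± 0.04, 0.46 ± 0.04 and 0.79 ± 0.04 in that order. Rplp1 and Rplp2, the acidic stalk proteins, rose by 0.50 and 0.56 with Dex, 0.38 and 0.49 with IL27, and 0.57 and 0.73 with both.

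Rpl5 and Rpl11 form with the small 5S ribosomal RNA a particle that can also bind Mdm2. Rpl5 had 1542, 1599 and 1600 FPKM in Ctrl and 2024, 2075 and 2115 FPKM with Dex, and Rpl11 had 1336, 1430 and 1420 FPKM in Ctrl and 2065, 1944 and 2028 FPKM with Dex. Neither pair of groups overlapped. Their changes with Dex were 0.40 ± 0.05 and 0.54 ± 0.05. With both agents Rpl11 reached 0.73 ± 0.05, while Rpl5 was at 0.38 ± 0.05, beside 0.40 with Dex alone.

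Among small-subunit genes, Rps6, the protein phosphorylated by S6 kinases, had 1561, 1630 and 1570 FPKM in Ctrl, 2428, 2380 and 2512 with Dex, 2291, 2157 and 2215 with IL27, and 2456, 2653 and 2424 with both. It rose by 0.63 ± 0.05, 0.50 ± 0.05 and 0.70 ± 0.05. Rps19, needed to mature the small subunit, rose by 0.77, 0.68 and 0.94, Rpsa, also known as a laminin receptor, by 0.46, 0.38 and 0.56, and Rps27a, made as a fusion with ubiquitin, by 0.35, 0.34 and 0.37. By point value the order of the 3 treatments was the same for Rps6, Rps19 and Rpsa, and Rps27a changed by nearly the same amount in each.

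The size of the rise varied among members. With Dex alone the largest were Rps27 (1.00 ± 0.22), Rpl22l1 (0.93 ± 0.06) and Rpl23a (0.93 ± 0.05), and with both agents Rps27 (1.20 ± 0.22), Rps15a (1.16 ± 0.05) and Rpl37a (1.08 ± 0.06). Rps15a, a small-subunit protein, had 139, 141 and 143 FPKM in Ctrl, 242, 234 and 246 with Dex, 265, 239 and 249 with IL27, and 301, 310 and 308 with both. Its libraries were tight within groups, unlike those of Rps27, which had 587, 650 and 981 FPKM in Ctrl and 1607, 1773 and 1025 FPKM with Dex. Rps2 also spread within Ctrl (920, 1525 and 1909 FPKM) and had 3001, 3132 and 3222 FPKM with IL27, where its change of 1.12 ± 0.18 was the largest of all members. Among the smaller called rises, Rpl10, the protein that completes the large subunit late in assembly, rose by 0.23 ± 0.05 with Dex. Its change of 0.15 ± 0.05 with IL27 passed, but the call was lost with library totals as scaling (0.09, adjusted p = 0.0756, edgeR), with limma on FPKM without a filter (adjusted p = 0.0777) and without Ctrl replicate 1 (adjusted p = 0.0632, edgeR).

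Paralogs of ribosomal proteins did not all follow their main copies. Rpl7 rose by 0.40 ± 0.05 with Dex, 0.31 ± 0.05 with IL27 and 0.48 ± 0.05 with both, and its relative Rpl7l1, a nucleolar protein of large-subunit assembly, fell by 1.05 ± 0.10, 1.37 ± 0.10 and 1.74 ± 0.10 on the log2 scale. Rpl7l1 had 82.5, 84.4 and 84.7 FPKM in Ctrl, 35.1, 43.0 and 42.7 with Dex, 27.7, 34.8 and 33.7 with IL27, and 23.9, 22.1 and 27.6 with both. All 9 treated libraries lay below the Ctrl libraries, and the lowest were those with both agents.

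Rps27l, a relative of Rps27 known as a p53 target, behaved alike. It had 672, 674 and 646 FPKM in Ctrl, 334, 372 and 386 with Dex, 359, 414 and 414 with IL27, and 278, 305 and 262 with both, with no overlap between treated and Ctrl libraries. Its changes were -0.86 ± 0.08, -0.73 ± 0.08 and -1.20 ± 0.08 while those of Rps27 were 1.00, 0.81 and 1.20. The pair therefore shifted in opposite directions.

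In 2 other pairs the relation was different. Rpl22 and its relative Rpl22l1 rose together, by 0.73 and 0.93 with Dex, 0.67 and 0.80 with IL27, and 0.89 and 1.04 with both. Rpl22l1 had 485, 492 and 488 FPKM in day 9 Ctrl and between 821 and 1040 FPKM in the 9 treated libraries, against 1022, 1055 and 1036 FPKM in day 3 WT Ctrl. Rpl36a rose by 0.75, 0.59 and 0.83, and its relative Rpl36al had changes of -0.04, 0.07 and 0.08, none of which passed the test (adjusted p = 0.55, 0.291 and 0.218, edgeR). For Rpl36al the Ctrl libraries (617, 644 and 640 FPKM) overlapped those with Dex (601, 598 and 631 FPKM). Rps4x rose by 0.69, 0.53 and 0.77, and Rps4y2, at between 1.81 and 3.63 FPKM in day 9 libraries, was not called in any comparison.

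**Figure D4:**
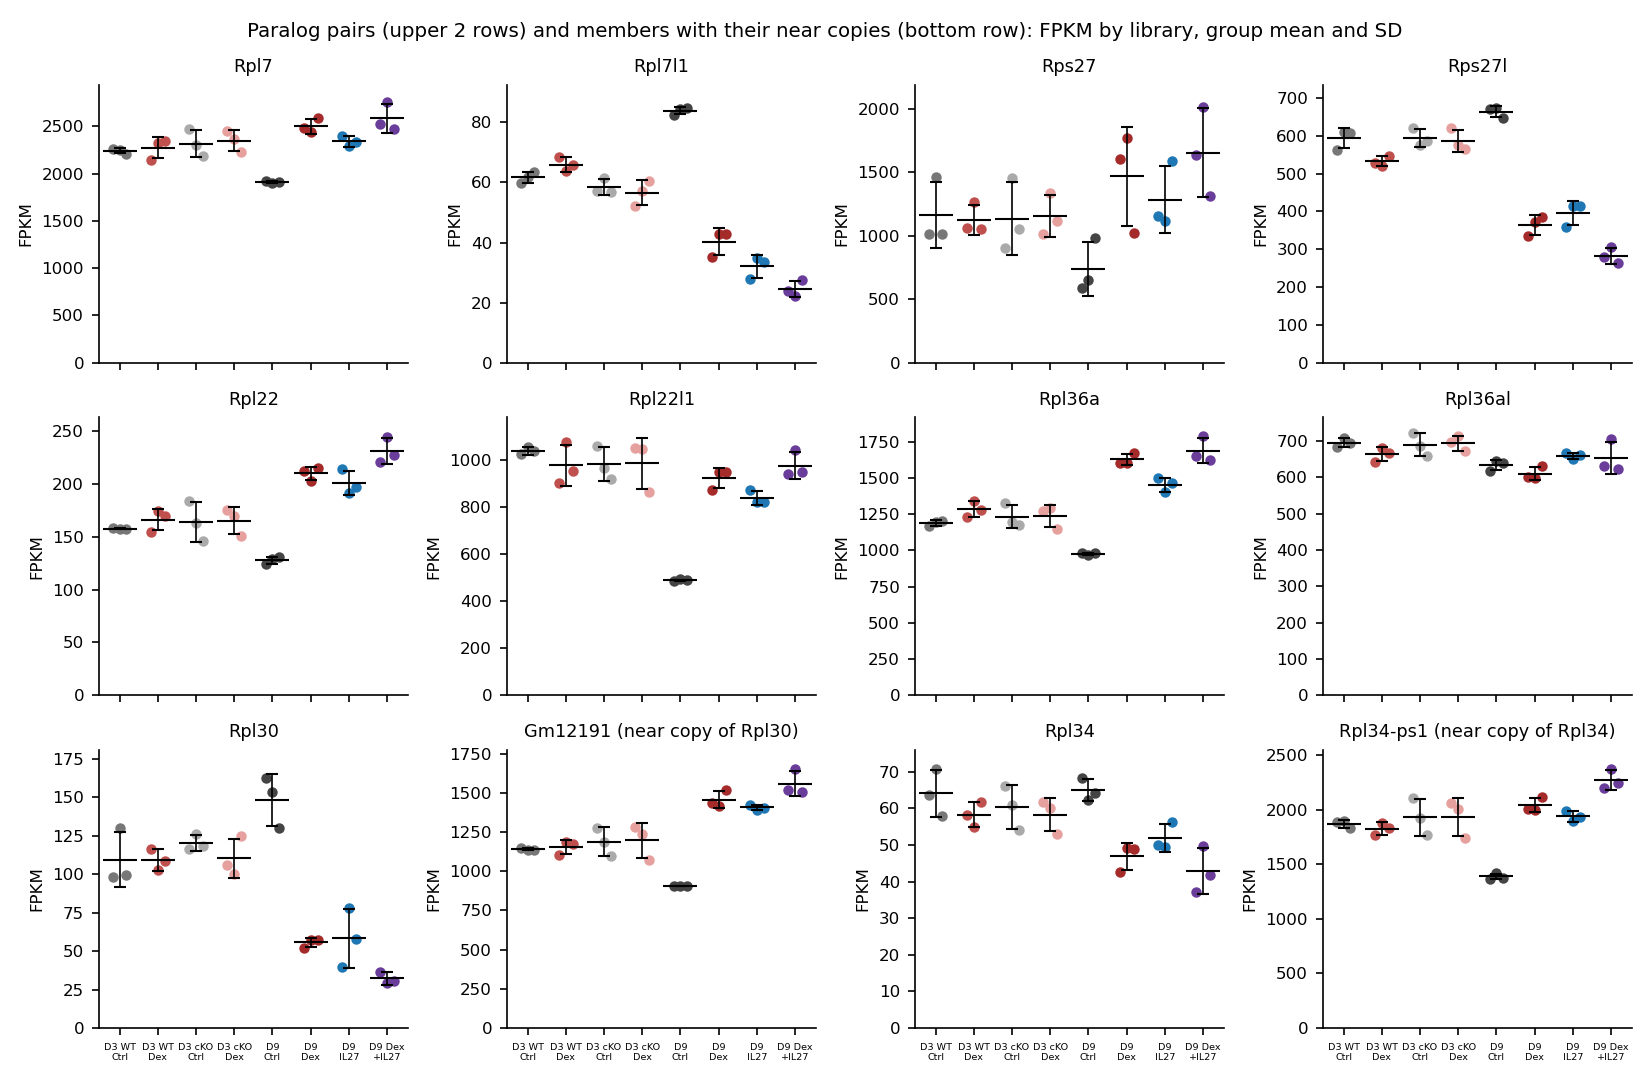
FPKM (y axes from 0) in each library (points) by group, with the mean and SD of 3 libraries (bars), for 4 pairs of related members and for Rpl30 and Rpl34 with symbols that hold near copies of their sequence. Rpl7l1 and Rps27l fall in the treated day 9 groups while Rpl7 and Rps27 rise, and Gm12191 and Rpl34-ps1 rise while Rpl30 and Rpl34 fall.

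Rpl30 and Rpl34, both large-subunit proteins, were the other 2 members lower with Dex, and for them the counting is uncertain. Rpl30 had 163, 153 and 130 FPKM in day 9 Ctrl, 52.2, 57.5 and 57.2 with Dex, 39.3, 77.8 and 58.1 with IL27, and 36.6, 29.1 and 30.8 with both, changes of -1.41 ± 0.18, -1.33 ± 0.18 and -2.17 ± 0.18. Rpl34 changed by -0.46 ± 0.11, -0.31 ± 0.11 and -0.56 ± 0.11. Its call with IL27 was lost without Ctrl replicate 1 (adjusted p = 0.0734, edgeR), IL27 replicate 1 (adjusted p = 0.0625) or IL27 replicate 2 (adjusted p = 0.0709). By mean FPKM (93.0 and 56.0) both were among the 5 lowest members.

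Symbols outside the rule that hold near copies of these sequences had many more counts. Every stretch of 38 bases, the read length, was taken from the GENCODE vM21 transcripts of each member and looked for in the transcripts of other genes. Gm12191 held 8.86% of the stretches of Rpl30 and 11.8 times its counts, Rpl34-ps1 held 8.75% of those of Rpl34 and 23.6 times its counts, and Gm15772 held 21.9% of those of Rpl26 and 6.33 times its counts. No other member shared at least 5% of its stretches with a symbol that had more counts than itself.

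The near copies rose, as most members did. Gm12191 had 906, 909 and 907 FPKM in day 9 Ctrl, 1433, 1417 and 1521 with Dex, 1423, 1394 and 1406 with IL27, and 1516, 1654 and 1509 with both. It rose by 0.70 ± 0.05, 0.65 ± 0.05 and 0.82 ± 0.05. Rpl34-ps1 rose by 0.57, 0.50 and 0.75, and Gm15772 by 0.68, 0.60 and 0.79. With the counts of near copies added to each member, an alternative chosen after seeing the data, Rpl30 was higher by 0.51, 0.47 and 0.61, Rpl34 by 0.52, 0.46 and 0.70, and Rpl26 by 0.60, 0.52 and 0.70, all with adjusted p of at most 1.62e-06 (edgeR). Over all libraries the copies held 92.2%, 95.9% and 86.4% of these sums. The sums therefore mostly follow the copies and cannot show how each member itself changed. With the sums in place of the members, 2 rather than 4 were lower with Dex. How the reads were divided between each member and its copy was not tested.

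Sharing of sequence was widespread, since 81 of the 82 members found in GENCODE shared at least 1 stretch with another gene, with a median of 25.6% of stretches. For Rpl7l1 11.9% and for Rps27l 14.2% of stretches were shared, with 4.93% and 0% found in a gene of the expression table. Rps19bp1 shared none. The levels of single members are therefore uncertain to the extent that reads were assigned to copies.

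Rps19bp1 was lower with IL27 and with both agents. It had 37.6, 43.5 and 40.3 FPKM in Ctrl, 25.3, 34.0 and 36.1 with IL27, and 28.1, 32.9 and 23.3 with both, with no overlap between Ctrl and treated libraries. It changed by -0.33 ± 0.13 with IL27 (adjusted p = 0.0438, edgeR) and -0.49 ± 0.13 with both. The call with IL27 was lost with only the groups compared (adjusted p = 0.062), with limma on FPKM without a filter (adjusted p = 0.0719), and in edgeR without Ctrl replicate 2, Ctrl replicate 3 or IL27 replicate 1, the last of which left -0.20 (adjusted p = 0.198). Its change with Dex of -0.32 ± 0.13 missed the threshold (adjusted p = 0.0557, edgeR), so the treatments are not shown to differ for it. Without IL27 replicate 1, 3 members were lower with IL27.

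The 2 agents together were also set against each alone. Against Dex, the combination gave 30 higher members (14.9% of all genes) and 4 lower (17.1% of all genes), with a median of 0.10. Rps15a was the largest called rise, at 0.37 ± 0.05, followed by Rpl37a at 0.33 ± 0.06 and Rpl38 at 0.26 ± 0.07, and Rpl30, Rpl7l1 and Rps27l were among the lower, with changes of -0.76, -0.69 and -0.34. These counts depended on single libraries, with 10 higher members without Dex replicate 2, 19 without Dex replicate 1 and 18 without Dex+IL27 replicate 2. With library totals alone as scaling, 12 were higher and 8 lower.

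Against IL27, the combination gave 54 higher members (11.7% of all genes) and 3 lower (14.3% of all genes), with a median of 0.18. Rpl37a at 0.41 ± 0.06 and Rpl23a at 0.38 ± 0.05 rose most, and the lower members were Rpl30, Rps27l and Rpl7l1. The call of Rpl7l1 was lost with only the groups compared and without Dex+IL27 replicate 1 or 2 or IL27 replicate 2 or 3, with adjusted p from 0.0507 to 0.0739 (edgeR). Without IL27 replicate 3, 35 were higher. Rpl23a was 4119, 4138 and 4301 FPKM with Dex and 4139, 4475 and 4235 FPKM with both, groups that overlapped, but 3463, 3246 and 3344 FPKM with IL27.

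The combined change was below the sum of the single changes for most members. In the Dex by IL27 interaction, which is the combined change minus that sum, 68 members were lower (14.7% of all genes) and 2 higher (13.7% of all genes), with a median of -0.37 against -0.02 for all genes. For Rpl3, a protein near the peptidyl transferase center, single changes of 0.81 and 0.71 met a combined change of 0.92 and an interaction of -0.60 ± 0.06 (adjusted p = 1.95e-05, edgeR). By point value the interaction was positive for 7 of the 83 members, of which 2 passed the test. These 2 were Rpl7l1 (0.68 ± 0.14) and Rps27l (0.39 ± 0.11). Both fell with each agent, so for them too the combined change was smaller in size than the sum.

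The Dex change itself differed between days. The day 9 change minus the day 3 change in WT cells was taken from a fit of all 24 libraries. It was called higher for 71 members (20.4% of all genes) and lower for 3 (19.2% of all genes), with a median of 0.52. The point value was positive for 76 of the 83 members. Rps27 (1.07 ± 0.30), Rpl22l1 (1.04 ± 0.10) and Rpl17 (0.83 ± 0.08) differed most among those called higher. The 3 called lower were Rpl30 (-1.38 ± 0.22), Rpl7l1 (-1.12 ± 0.12) and Rps27l (-0.68 ± 0.09). Rps2, whose libraries spread widely at both days, did not pass (0.16 ± 0.33, adjusted p = 0.731, edgeR). Day, restimulation and length of exposure to Dex cannot be told apart in this difference.

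Related gene lists moved less uniformly. Of 21 measured genes on a list of TOP mRNAs other than these members, 15 were higher and 4 lower with Dex, 14 and 2 with IL27, and 15 and 5 with both. Of all genes, 28.2% were higher and 27.4% lower with Dex, 29.3% and 28.1% with IL27, and 34.3% and 32.6% with both. Fau rose by 0.96, 0.93 and 1.36, as did Eef1a1, an elongation factor, by 0.89, 0.83 and 1.00. Eef1d, of the same elongation machinery, fell by 0.51, 0.51 and 0.35 on the log2 scale. On a list of 22 genes of the mTORC1 pathway, 6 were higher and 6 lower with Dex, 5 and 8 with IL27, and 8 and 10 with both, counts that lie near the shares of all genes. The changes of Larp1 were -0.64, -0.59 and -1.11. Ddit4, an inhibitor of mTORC1, had 1.62, 1.22 and 2.06, and Deptor, another, had 2.35, 0.51 and 3.06, of which the value with IL27 did not pass the test. With Dex, Eif4e (-0.81 ± 0.09) and Rictor (1.03 ± 0.14), also on this list, had a lower p than Larp1 or Deptor (edgeR). Ddit4 also rose with Dex in WT cells at day 3, by 0.97 ± 0.11 (adjusted p = 1.3e-05, edgeR). What these changes mean for the members was not tested.

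Mitochondrial ribosomal protein genes fell in the same libraries in which the cytosolic ones rose. With Dex 63 of 76 were lower and 4 higher (median -0.53), with IL27 58 and 5 (median -0.49), and with both 63 and 6 (median -0.80), while 27.4%, 28.1% and 32.6% of all genes were lower. Myc, a transcription factor that drives ribosome production, was also lower, by -0.76 ± 0.11, -0.42 ± 0.10 and -1.15 ± 0.11. At day 3 with Dex in WT cells, 1 mitochondrial gene was higher and 2 were lower, against 9.43% of all genes called in either direction, and Myc did not pass the test (0.09 ± 0.05).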

How the data were processed

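The 24 libraries were made by the submitters with a modified SMART-Seq2 protocol (11 amplification cycles, paired reads of 38 nt). The authors deposited estimated counts per gene from RSEM, not normalized. The authors also deposited FPKM, scaled by TMM per the file's name. Per the submitters' processing notes, TopHat, RSEM, DESeq and mm9 were used, with no versions. All columns of both tables matched a sample.

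Members and gene lists were chosen with earlier results of these data known. Counts were rounded and tested with edgeR 4.0.16 in R 4.3.3 (quasi-likelihood F-test, two-sided, TMM, filterByExpr with a minimum count of 10, Benjamini-Hochberg over all genes), with the 12 libraries of a day in 1 fit and all 24 for the difference between days. Genes were named by fixed roles (paralogs, stalk, 5S particle and others), lowest p, largest change and direction against the majority. Fits were tested on simulated data. Some named results are not reported here. Alternatives used DESeq2 1.42.0, limma 3.58.1 on log2(FPKM + 1), other scalings and filters, and libraries left out. Sequences came from RefSeq (GRCm38.p6) and GENCODE vM21. Reads were amplified and carry no molecular identifiers. Figures were drawn with matplotlib 3.10.9.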

Additional observations from a re-analysis of the deposited data

Results flagged for a closer look

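The Dex response of the members at day 9 differed between cells with and without IL27 by the interaction test (edgeR). The interaction was lower for 68 members (14.7% of all genes) and higher for 2 (13.7% of all genes). Among the named members, it was -0.60 for Rpl3, -0.56 for Rpl13 and -0.56 for Rpl17, and 0.68 for Rpl7l1 and 0.39 for Rps27l.

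The Dex response in WT cells also differed between day 9 and day 3 by the test of the difference in 1 fit of all libraries. The difference was higher for 71 members (20.4% of all genes) and lower for 3 (19.2% of all genes). It was 0.80 for Rpl13, 0.83 for Rpl17, -1.12 for Rpl7l1, -0.68 for Rps27l and -1.38 for Rpl30. The value of Rpl30 turned positive when counts of its near copy were added, and the copy held 92.2% of that sum.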

How the results depend on the processing

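The counts of called members at day 9 against Ctrl stayed within 1.5 times in all alternatives but those given here, and the medians of the 83 members ranged from 0.53 to 0.61 with Dex, from 0.41 to 0.51 with IL27 and from 0.54 to 0.69 with both. With the counts of near copies added, an alternative chosen after seeing the data, 2 members were lower with Dex, Rpl30 changed by 0.51 with Dex, 0.47 with IL27, 0.61 with both, 0.10 with both against Dex, 0.14 with both against IL27 and 0.51 in the difference between days, and Rpl34 changed by 0.52, 0.46 and 0.70 against Ctrl. Among the called results of the named members, no other changed sign in the alternatives run. For Rpl30 and Rpl34 the near copies held 92.2% and 95.9% of the summed counts, so these values mostly follow the copies.

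For Dex in WT at day 3, 2 members were called with library totals, 2 without Rn45s, 4 without the low-count filter and 4 with only the groups compared. For cKO against WT without Dex, 6 were called without the filter and 0 with DESeq2, with limma at either pseudocount or without its filter, and when both days shared a fit. With Dex, 2 were called without the filter and 0 with limma without a filter, with only the groups compared and when both days shared a fit. For genotype by Dex, 1 was called without the filter. For both against Dex, 20 members were called with library totals (12 higher, 8 lower) and 16 with limma without a filter (12 higher), and for both against IL27, 5 were lower with library totals.

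With 1 library left out, the calls ranged from 0 to 2 for Dex in WT, 0 to 1 for cKO against WT without Dex, 0 to 2 with Dex, 0 to 1 for genotype by Dex, 3 to 5 lower with IL27, 14 to 31 for both against Dex (10 to 27 higher, 4 to 8 lower) and 37 to 60 for both against IL27 (35 to 57 higher). Same-numbered libraries did not pair, with correlations of their deviations from -0.137 to 0.208, and 2 of 24 over 0.1. The replicate block gave 12 members for Dex in WT at day 3 and 1 for genotype by Dex. No block could be fitted for cKO against WT, which share no replicate numbers. The cause of these shifts was not tested. Calls at day 3 rest on 3 libraries a group and on changes of at most 0.89 on the log2 scale.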
